A study of Mus musculus with 14 samples.

Results

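Brown adipose tissue of adult mice was compared with brown adipose tissue of mouse embryos. The pair makes up 2 of the 14 RNA sequencing libraries of a study that otherwise followed 2 preadipocyte lines through adipogenesis in culture, with 12 libraries. Both tissues came from the strain C57BL/6J, 1 group at the stage labelled Adult and the other at the stage labelled Embryo, and neither is labelled with a treatment or a transgene. The labels give no age, embryonic day, sex, depot or number of animals. They repeat for both tissues the culture protocol of a preadipocyte line, and do not say whether a library holds 1 animal or a pool. Total RNA was enriched for messenger RNA on oligo-dT beads before library preparation.

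Each group held 1 library, so there is no estimate of the spread between animals, no value below was tested, and every interval given covers counting error only. Expression is given as RPKM, the reads of a transcript per kilobase of its length and per M reads (M, mega) of the library, as the authors deposited it, with the deposited read count where it matters. Differences are adult minus embryo on the scale log2(RPKM + 1), which understates the change of genes near 0. A gene was called higher in 1 tissue when this difference was at least 1 with the larger RPKM at least 2, both as deposited and after median-of-ratios scaling, and genes that reached 2 RPKM in either tissue are referred to as measured.

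Brown fat burns fatty acids to make heat: its adipocytes are packed with mitochondria and with small lipid droplets, and uncoupling protein 1 lets protons leak back across the inner mitochondrial membrane without making ATP. Noradrenaline from sympathetic nerves starts this through beta-adrenergic receptors, cAMP and the release of fatty acids from triglyceride. In rodents the interscapular depot forms before birth from somitic mesoderm and is ready for the cold that follows birth, and in adults it also takes up glucose and makes new fatty acids while it is active.

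The deposited counts summed to 4.02 M reads in adult and 17.5 M reads in embryonic tissue over 29082 transcripts of 22835 gene symbols, and 1 read on a transcript of 2 kb was worth 0.0935 RPKM in adult and 0.0266 RPKM in embryonic tissue. Of 10708 measured genes, 537 (5.01%) were called higher in adult tissue and 1285 (12%) higher in embryonic tissue, 17% in all. Past a difference of 2 lay 159 and 461 of them. The median difference over the measured genes was -0.56, and -0.076 after median-of-ratios scaling, which acts on RPKM and so moves genes near 0 less on the log2(RPKM + 1) scale. With the deposited values alone the split was 537 higher in adult against 2900 higher in embryonic tissue, and with the scaled values alone it was 1012 against 1223. Scd1 and Fasn together took 13.2% of the adult reads and 0.525% of the embryonic reads on the transcripts kept, and with transcripts of over 1% of reads left out of the totals the median difference was -0.17. Medians of lists are therefore given on both scales where they differ in sign, and medians of gene groups are to be read against -0.56 (deposited) and -0.076 (scaled).

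**Figure D1:**
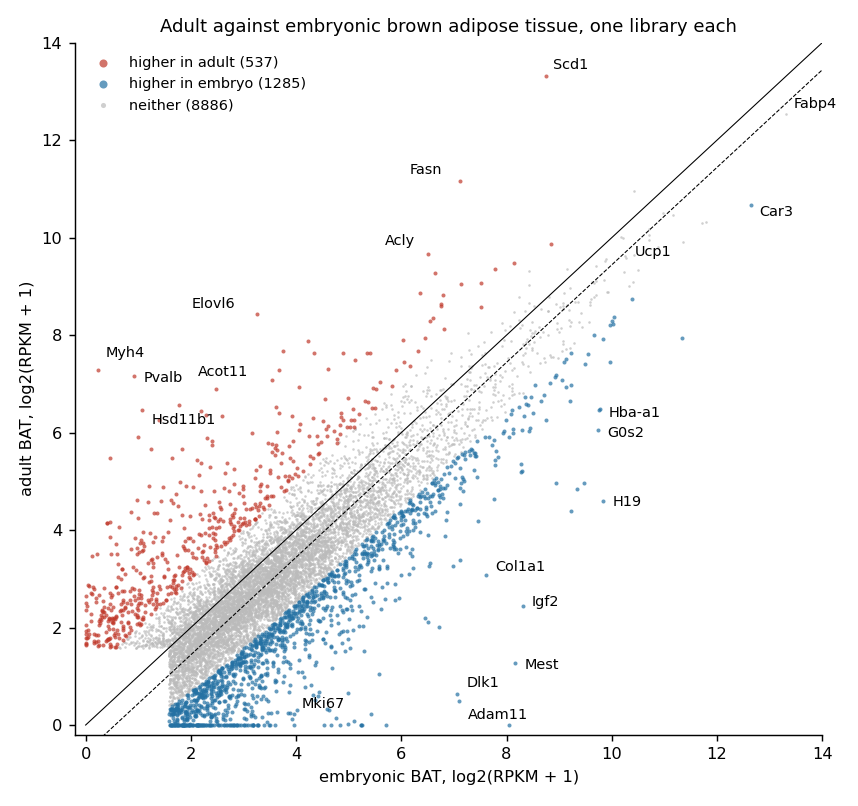
Each point is a measured gene, with log2(RPKM + 1) in adult tissue on the vertical axis and in embryonic tissue on the horizontal axis; the solid line marks equal RPKM and the dashed line equality after median-of-ratios scaling. The 537 genes called higher in adult tissue lie above the lines, with Scd1, Fasn and Elovl6 farthest out at high expression, and the 1285 called higher in embryonic tissue lie below, among them Igf2, H19, Mest and Dlk1.

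Both libraries carried the defining transcripts of brown fat. Ucp1 had 1015 RPKM in adult tissue, against 1194 RPKM in embryonic tissue. Cidea, a lipid droplet protein, had 1164 RPKM in adult tissue, against 1676 RPKM in embryonic tissue. Pparg, the master regulator of adipocyte differentiation, had 84.7 RPKM in adult tissue, against 122 RPKM in embryonic tissue. Fabp4, the fatty acid-binding protein of adipocytes, had 5959.9 RPKM in adult tissue, against 10168 RPKM in embryonic tissue, and was the most abundant transcript per length in embryonic tissue, where in adult tissue it came second to Scd1. None of these genes was called: for Ucp1 the log2 ratio of RPKM was -0.23 (95% interval -0.27 to -0.20), and the difference was -0.23 as deposited and 0.32 after scaling, so its sign depends on the scale. So does that of Cidea, at -0.53 as deposited and 0.03 scaled, and of Pparg, at -0.52 and 0.03. Of the genes named further on, the sign also depends on the scale for Aldoa, Fth1, Cox7a2, Plin1, Lipe, Lpl, Dcn, Hoxa5, Igf1r, Kit, Lyz2, Mylpf, Mdm2 and Hbb-y, none of them called, with differences between -0.48 (Cox7a2) and -0.02 (Mdm2) as deposited and between 0.08 (Cox7a2) and 0.49 (Mdm2) scaled. Among genes highest in both libraries, Car3, a carbonic anhydrase of fat and muscle, was called higher in embryonic tissue, with 1631 RPKM in adult tissue, against 6369.9 RPKM in embryonic tissue. Thrsp, a nuclear protein tied to lipogenesis, had 1984 RPKM in adult tissue, against 1378 RPKM in embryonic tissue and was not called. Aldoa, Atp5b and Fth1, also among the 12 most abundant of a tissue, had between 1027 and 1457 RPKM in adult and between 1151 and 2299.9 RPKM in embryonic tissue, and were not called.

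Genes that make fatty acids took a far larger share of the adult reads on the transcripts kept than of the embryonic ones. Of 19 measured genes of de novo fatty acid synthesis, 10 were called higher in adult tissue and 2 higher in embryonic tissue, with a median difference of 1.21 (1.77 scaled). Together the list took 16.1% of adult reads and 1.46% of embryonic reads. Scd1, the desaturase that makes oleate and palmitoleate, had 10163 RPKM in adult tissue, against 428 RPKM in embryonic tissue, from 262956 and 38896 reads. That gene alone was 9.04% of adult reads, and 0.316% of embryonic reads, and its log2 ratio of RPKM was 4.57 (95% interval 4.55 to 4.58). Fasn, the synthase of palmitate, had 2276 RPKM in adult tissue, against 138 RPKM in embryonic tissue, with a log2 ratio of 4.04 (95% interval 4.02 to 4.06). Elovl6, which extends palmitate to stearate, showed the largest log2 ratio of the list, 5.35 (95% interval 5.25 to 5.45), at 347 RPKM in adult and 8.51 RPKM in embryonic tissue.

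The steps that feed the synthase stood in the same direction. Acly, which splits citrate into cytosolic acetyl-CoA, had 805 RPKM in adult tissue, against 89.98 RPKM in embryonic tissue. Acss2, which makes acetyl-CoA from acetate, had 179 RPKM in adult tissue, against 33.6 RPKM in embryonic tissue. The citrate carrier Slc25a1 was at 278 RPKM in adult and 111 RPKM in embryonic tissue. Acaca, the acetyl-CoA carboxylase that commits carbon to fatty acids, had 135 RPKM in adult tissue, against 10.6 RPKM in embryonic tissue, a larger difference (3.55) than that of Acacb (1.21), the carboxylase at the outer mitochondrial membrane, at 165 RPKM in adult and 70.4 RPKM in embryonic tissue. Me1, malic enzyme, a source of NADPH, had 197 RPKM in adult tissue, against 19.2 RPKM in embryonic tissue. Of the pentose phosphate pathway, another source of NADPH, the enzymes G6pdx and Pgd, which make it, were not called: G6pdx was at 66.6 RPKM in adult and 33.6 RPKM in embryonic tissue, and Pgd at 230.2 RPKM in adult and 189 RPKM in embryonic tissue. Tkt, the transketolase of the same pathway, was called higher in adult tissue, with 934 RPKM in adult tissue, against 459 RPKM in embryonic tissue.

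The members called higher in embryonic tissue were Fads1 and Srebf1. Elovl5 was among those called higher in adult tissue, and Scd2 was not called. Fads1, the delta-5 desaturase, had 4.703 RPKM in adult tissue, against 17.5 RPKM in embryonic tissue, and was called higher in embryonic tissue. Its partner Fads2 had 3.84 RPKM in adult tissue, against 11.9 RPKM in embryonic tissue, and was not called. Srebf1, which encodes the transcription factor SREBP-1 that drives lipogenic genes, was called higher in embryonic tissue, at 56.01 RPKM in adult and 172 RPKM in embryonic tissue. Mlxipl, which encodes the glucose-responsive factor ChREBP, had 77.8 RPKM in adult tissue, against 39.03 RPKM in embryonic tissue, just short of the threshold at 0.98. Genes of sterol synthesis, whose factor is SREBP-2, did not move as a group, with 2 of 20 measured members higher in adult tissue, 1 higher in embryonic tissue and a median difference of -0.18 (0.33 scaled, so its sign depends on the scale). The members called higher in adult tissue were Sc5d and Fdft1.

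Further along, triglyceride assembly was called higher in adult tissue in 5 of 14 measured genes and higher in embryonic tissue in 0. Dgat2, which adds the last acyl chain and favours newly made fatty acids, had 532 RPKM in adult tissue, against 139.8 RPKM in embryonic tissue, whereas Dgat1, the other enzyme of that step, had 49.5 RPKM in adult tissue, against 114 RPKM in embryonic tissue and was not called. Gpam, the acyltransferase of the first step, was at 53.1 RPKM in adult and 20.4 RPKM in embryonic tissue, and Pck1, which makes glycerol phosphate from pyruvate in fat, at 714 RPKM in adult and 283 RPKM in embryonic tissue. Gpd1, which makes glycerol phosphate from glucose, had 1269 RPKM in adult tissue, against 3348 RPKM in embryonic tissue, and was not called at -1.40 and -0.84 scaled. Of 18 genes of the lipid droplet and lipolysis 1 was higher in adult and 2 higher in embryonic tissue, with a median of -0.50 as deposited and 0.06 scaled. Plin2 was called higher in adult tissue (204 RPKM in adult and 78.4 RPKM in embryonic tissue) and Plin3 higher in embryonic tissue (29.4 RPKM in adult and 116 RPKM in embryonic tissue). Plin1, Lipe and Pnpla2, the coat protein and the lipases of stimulated lipolysis, were not called, and G0s2, the inhibitor of the lipase encoded by Pnpla2, had 65.4 RPKM in adult tissue, against 855 RPKM in embryonic tissue, a difference of -3.69. Pnpla2 itself was at 652 RPKM in adult and 567 RPKM in embryonic tissue.

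**Figure D2:**
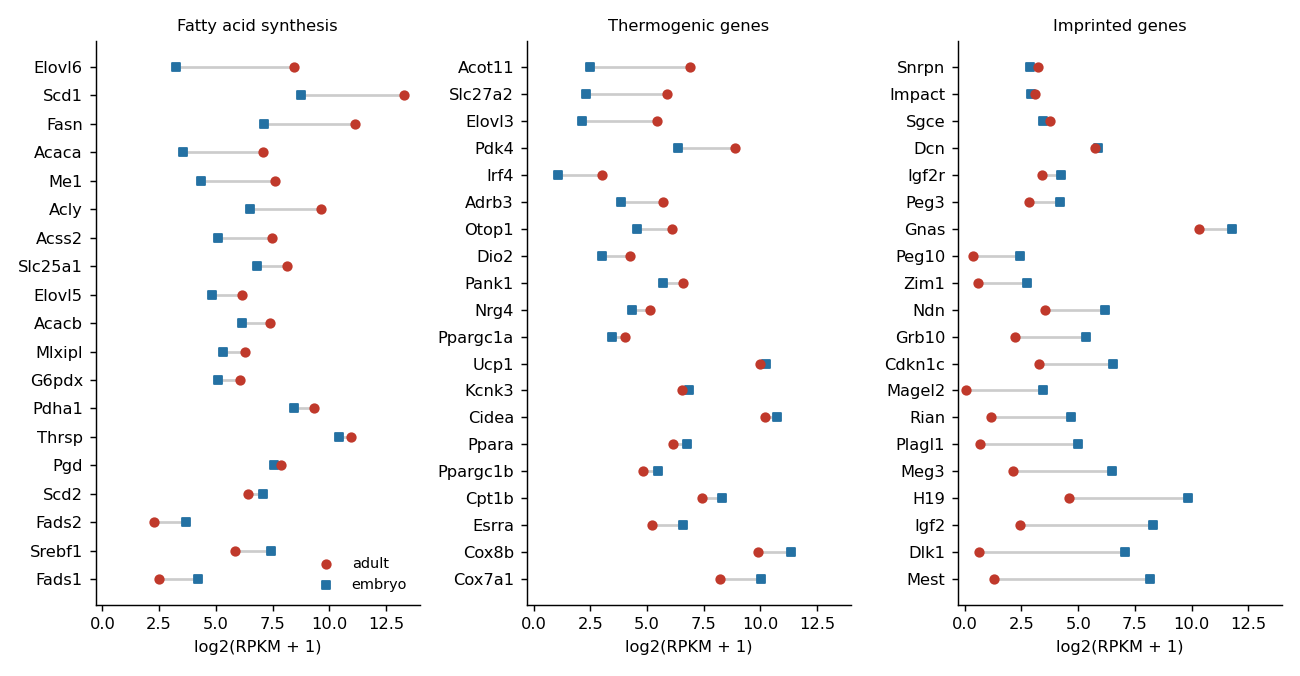
For each gene the red circle is log2(RPKM + 1) in adult tissue and the blue square that in embryonic tissue, for fatty acid synthesis and most of the thermogenic and imprinted genes, each sorted by the difference. The lipogenic genes from Elovl6 to Acacb have the adult value to the right, Ucp1 and Cidea overlap, and the imprinted genes from Peg10 to Mest have the embryonic value to the right.

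By the main rule the thermogenic programme did not move as 1 block. Of 23 measured members, 8 were called higher in adult tissue and 2 higher in embryonic tissue, with a median difference of 0.41 (0.86 scaled). After subtraction of the median of a length class, described below, 10 passed the threshold in adult and 0 in embryonic tissue. The balance of these calls therefore depends on that setting. Those higher in adult tissue were Acot11, Slc27a2, Elovl3, Pdk4, Irf4, Adrb3, Otop1 and Dio2. Acot11, an acyl-CoA thioesterase induced by cold, had 119 RPKM in adult tissue, against 4.55 RPKM in embryonic tissue. Slc27a2, an acyl-CoA synthetase of very long chains, was at 57.9 RPKM in adult and 3.96 RPKM in embryonic tissue, and Elovl3, the cold-induced elongase, at 42.4 RPKM in adult and 3.35 RPKM in embryonic tissue. Pdk4, the kinase that shuts pyruvate out of the mitochondrion, had 465 RPKM in adult tissue, against 80.4 RPKM in embryonic tissue. Irf4, a partner of PGC-1 alpha, had 7.07 RPKM in adult tissue, against 1.13 RPKM in embryonic tissue. Dio2, the deiodinase that makes active thyroid hormone inside the brown adipocyte, was called at a smaller difference (1.23), with 17.9 RPKM in adult tissue, against 7.04 RPKM in embryonic tissue. Ppargc1a, the coactivator itself, had 15.2 RPKM in adult tissue, against 10.01 RPKM in embryonic tissue and was not called.

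Higher in embryonic tissue were Cox7a1 and S100b. Cox7a1, the heart and muscle isoform of a cytochrome oxidase subunit that also marks brown fat, had 299.8 RPKM in adult tissue, against 1037 RPKM in embryonic tissue. S100b, a calcium-binding protein that brown adipocytes secrete and that Schwann cells also express, had 11.7 RPKM in adult tissue, against 37.9 RPKM in embryonic tissue. Cox8b, another isoform of this kind, was at 956 RPKM in adult and 2607 RPKM in embryonic tissue and not called. Among brown lineage factors 1 of 15 was called higher in adult tissue, Epas1 (118 RPKM in adult and 44.8 RPKM in embryonic tissue), and 1 higher in embryonic tissue, Lhx8 (0.851 RPKM in adult and 3.99 RPKM in embryonic tissue). Prdm16, the coregulator of brown identity, had 2.95 RPKM in adult tissue, against 6.46 RPKM in embryonic tissue, and Ebf2 had 10.98 RPKM in adult tissue, against 22.1 RPKM in embryonic tissue; neither was called. Of 16 adipogenic factors, Klf15 was called higher in adult tissue, at 15.8 RPKM in adult and 4.25 RPKM in embryonic tissue, and Srebf1 higher in embryonic tissue. Klf4, an early factor of adipogenesis, had 7.55 RPKM in adult tissue, against 5.48 RPKM in embryonic tissue and was not called. Egr2, which encodes Krox20, was near the level of a few reads in both, at 0.189 RPKM in adult and 0.144 RPKM in embryonic tissue. The sign of the median of both factor lists depends on the scale (-0.40 and -0.40 as deposited, 0.08 and 0.14 scaled).

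Receptors and enzymes of the adrenergic input stood on the adult side where they were called. Of 15 measured genes 5 were called higher in adult tissue and 0 higher in embryonic tissue, against 5.01% and 12% of all measured genes. Adrb3, the beta3-adrenergic receptor of adipocytes, had 51.6 RPKM in adult tissue, against 13.6 RPKM in embryonic tissue. Adrb1, another beta receptor, had 5.93 RPKM in adult tissue, against 10.3 RPKM in embryonic tissue and was not called. Adra1a, an alpha1 receptor, was at 13.2 RPKM in adult and 5.62 RPKM in embryonic tissue. Adcy3, the adenylyl cyclase tied to cold exposure in brown fat, had 25.8 RPKM in adult tissue, against 2.304 RPKM in embryonic tissue, a difference of 3.02. Downstream, Prkaca, the catalytic subunit of protein kinase A, had 75.7 RPKM in adult tissue, against 130.2 RPKM in embryonic tissue, and was not called. Gnas, the stimulatory G protein and an imprinted locus, had 1272 RPKM in adult tissue, against 3546 RPKM in embryonic tissue, and was not called either.

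Genes of the creatine and calcium cycles, which can burn ATP in fat, overlap with muscle. Of 12 measured members 6 were called higher in adult tissue and 2 higher in embryonic tissue. The muscle calcium pump Atp2a1 had 205 RPKM in adult tissue, against 12.5 RPKM in embryonic tissue, the muscle calcium channel Ryr1 10.4 RPKM in adult tissue, against 0.513 RPKM in embryonic tissue, and the muscle mitochondrial creatine kinase Ckmt2 18.5 RPKM in adult tissue, against 2.98 RPKM in embryonic tissue. The adult library also held the transcripts of adult skeletal muscle described below, and the part of these in the 3 values was not tested. Atp2a2, the pump of non-muscle cells and slow fibres, was at 57.1 RPKM in adult and 26.2 RPKM in embryonic tissue. Alpl, a phosphatase, was at 4.38 RPKM in adult and 0.678 RPKM in embryonic tissue, and Slc6a8, the creatine transporter, at 7.499 RPKM in adult and 2.54 RPKM in embryonic tissue. Called higher in embryonic tissue were Gamt, which makes creatine, with 2.18 RPKM in adult tissue, against 17.1 RPKM in embryonic tissue, and Sln, sarcolipin, which binds the muscle calcium pump, with 5.39 RPKM in adult tissue, against 32.3 RPKM in embryonic tissue.

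Transcripts of the respiratory chain lay lower in adult tissue on both scales, and most of this was shared by short transcripts in general. Of 37 complex I genes, 0 were called higher in adult tissue and 11 in embryonic tissue, with a median difference of -1.32 (-0.77 scaled). Ndufb6 had 125 RPKM in adult tissue, against 596 RPKM in embryonic tissue, and the core subunit Ndufs1 had 165 RPKM in adult tissue, against 161 RPKM in embryonic tissue. The median length of the complex I transcripts was 641 bases. Over all measured genes the median difference was -1.41 for transcripts of up to 500 bases, -1.21 between 500 and 700 bases, -0.56 between 2000 and 3000 bases and -0.27 above 6000 bases, and the share called higher in embryonic tissue was 46.8% in the shortest class and 6.05% in the longest. In a setting chosen after seeing the data, genes were ranked by length and cut into length classes of equal gene number, which differ from the ranges above. The median of its class was then subtracted from each gene, and members of the lists are part of these medians. After this the median of complex I was -0.13, with 1 gene past the threshold in adult and 1 in embryonic tissue.

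Medians of other mitochondrial assemblies also lay below that of all measured genes as deposited. Counts of these lists and of complex I are to be read against all measured genes. Of those, 5.01% were called higher in adult and 12% higher in embryonic tissue. For complexes II to IV the median difference was -0.91 (-0.35 scaled), with 2 of 24 genes higher in embryonic tissue (Cyc1 and Uqcr11), and 0.09 after subtraction of the length class. For ATP synthase the median was -1.20 (-0.65 scaled), with 6 of 15 higher in embryonic tissue, and -0.17 after this subtraction. Among these was Atpif1, the inhibitor of the ATP synthase, with 8.32 RPKM in adult tissue, against 46.6 RPKM in embryonic tissue. Mitochondrial ribosomal proteins had a median of -1.10 (-0.59 scaled), with 9 of 51 higher in embryonic tissue, and -0.27 after subtraction. In the list of tissue-specific isoforms, with 14 measured members, 1 was called higher in adult tissue, Cox6a2, the muscle isoform of a cytochrome oxidase subunit, at 29.8 RPKM in adult and 9.06 RPKM in embryonic tissue, and 3 higher in embryonic tissue, Cox7a1, Slc25a5 and Atp5g1. Its counterpart Cox6a1 was at 986 RPKM in adult and 1682 RPKM in embryonic tissue. Cox4i1 and Cox4i2 were at 902 and 3.09 RPKM in adult and 1885 and 6.23 RPKM in embryonic tissue. Slc25a4, the ADP/ATP carrier of muscle and brown fat, had 268 RPKM in adult tissue, against 411 RPKM in embryonic tissue, and Slc25a5, the general carrier, 75.2 RPKM in adult tissue, against 253 RPKM in embryonic tissue. Cpt1b, the carnitine palmitoyltransferase of muscle and brown fat, had 172 RPKM in adult tissue, against 314 RPKM in embryonic tissue, far above Cpt1a (2.96 RPKM in adult and 5.48 RPKM in embryonic tissue) and Cpt1c (0.268 RPKM in adult and 1.05 RPKM in embryonic tissue) in both tissues. Of the remaining isoforms Cox7a2 was at 385 RPKM in adult and 536 RPKM in embryonic tissue, Cox8a at 514 RPKM in adult and 1281 RPKM in embryonic tissue, and Atp5g3 at 127 RPKM in adult and 275 RPKM in embryonic tissue, while Atp5g1 and Atp5g2 had 1 read each in adult and 33 and 12 reads in embryonic tissue. Few of the 36-base words of Atp5g1 (35.7%), Slc25a5 (35.3%), Atp5g2 (10%) and Cpt1b (5.71%) were found in no other gene. Reads of these genes may be shared, so their values are uncertain.

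**Figure D3:**
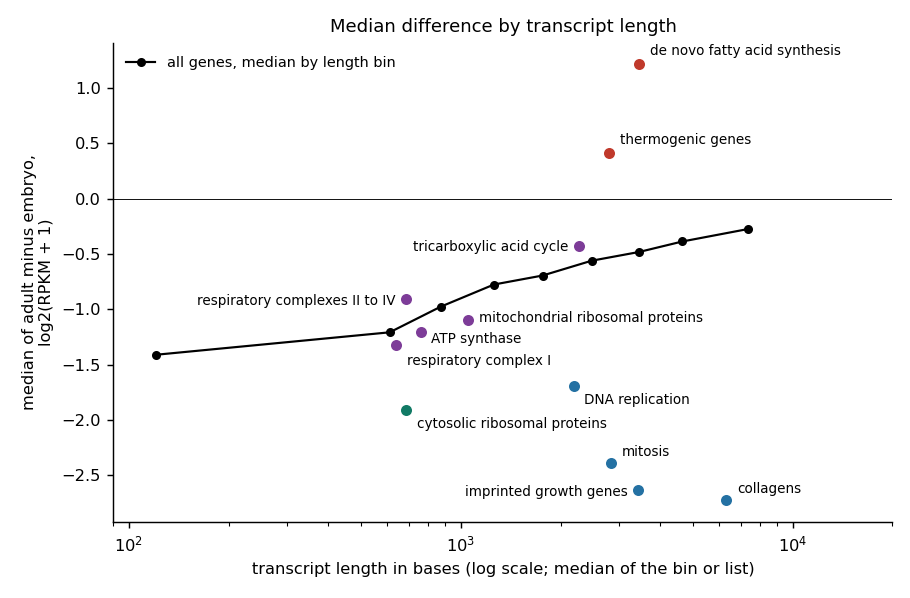
The black line joins the median differences (adult minus embryo, log2(RPKM + 1)) of measured genes in 9 classes of transcript length, on a log axis, and coloured points give the median length and median difference of 12 gene lists. The line climbs from -1.41 in the shortest class to -0.27 in the longest; the lists of mitochondrial assemblies lie near it, while fatty acid synthesis and thermogenic genes lie above it and ribosomal proteins, DNA replication, mitosis, imprinted genes and collagens below it.

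Enzymes of the mitochondrial matrix, with longer transcripts, stood close to the median of all genes. Of 19 genes of the tricarboxylic acid cycle 0 were higher in adult and 1, Mdh2, higher in embryonic tissue (312 RPKM in adult and 1029 RPKM in embryonic tissue). Of 23 genes of fatty acid oxidation 3 were higher in adult tissue, among them Acsf2 and Oxct1, which uses ketone bodies (89.2 RPKM in adult and 42.4 RPKM in embryonic tissue). Etfb was called higher in embryonic tissue. The medians of both lists, -0.43 and -0.44, were 0.13 and 0.12 after scaling, so their sign depends on the scale. In peroxisomes Ehhadh, an enzyme of beta-oxidation there, was called higher in adult tissue, at 40.6 RPKM in adult and 12.1 RPKM in embryonic tissue, while 1 of 25 measured members, Pex6, was higher in embryonic tissue. Breakdown of branched-chain amino acids had 1 of 20 genes higher in adult tissue (Acadsb) and 1 in embryonic tissue (Bckdhb). The median of the peroxisomal list was -0.05 as deposited and 0.49 scaled, and that of the amino acid list -0.13 and 0.42. After subtraction of the length class the genes past the threshold were 5 in adult and 0 in embryonic tissue for the amino acid list, 5 and 1 for the peroxisomal list and 2 and 0 for the tricarboxylic acid cycle, so these counts depend on that setting.

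Of 17 genes of fatty acid uptake 3 were higher in adult and 1 was higher in embryonic tissue (6 and 1 after subtraction of the length class). Acsl5, an acyl-CoA synthetase, had 122 RPKM in adult tissue, against 15.7 RPKM in embryonic tissue. Fabp3, the fatty acid-binding protein of muscle and of cold-exposed brown fat, had 93.2 RPKM in adult tissue, against 2.41 RPKM in embryonic tissue, a difference of 4.79, and Fabp5 had 12.4 RPKM in adult tissue, against 57.3 RPKM in embryonic tissue; the part of muscle RNA in the value of Fabp3 was not tested. Lpl and Cd36, which release and take up fatty acids, were at 678 and 386 RPKM in adult and 829 and 368 RPKM in embryonic tissue, and not called. In glycolysis 4 of 22 measured genes were higher in adult tissue, Pdk4 and the muscle isoforms Eno3, Pgam2 and Pfkm, and 1 was higher in embryonic tissue. This was Gapdh, which rested on 2 and 49 reads and shares its sequence with many pseudogenes, so its value is uncertain. The median of the list was -0.17 as deposited and 0.37 scaled, and after subtraction of the length class 7 genes passed in adult and 0 in embryonic tissue. Slc2a4, the insulin-responsive glucose transporter, had 102 RPKM in adult tissue, against 67.95 RPKM in embryonic tissue, and was not called. Outside the lists, enzymes of glycogen in their liver forms were among the largest differences: Pygl, glycogen phosphorylase, had 233 RPKM in adult tissue, against 17.8 RPKM in embryonic tissue, and Gys2, glycogen synthase, had 15.8 RPKM in adult tissue, against 0.561 RPKM in embryonic tissue. Slc2a5, the fructose transporter, had 16.7 RPKM in adult tissue, against 0.327 RPKM in embryonic tissue.

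Genes of cell division stood almost wholly on the embryonic side. Of 32 mitotic genes matched, 30 were measured and 28 were called higher in embryonic tissue, 0 in adult tissue, with a median difference of -2.39 (-2.13 scaled, -1.84 after subtraction of the length class). Their RPKM summed to 13.8 in adult and 213 in embryonic tissue. Mki67, the proliferation antigen, had 0.0928 RPKM in adult tissue, against 14.2 RPKM in embryonic tissue, from 5 and 2683 reads, with a log2 ratio of -7.26 (95% interval -8.88 to -6.03). Top2a, the topoisomerase that untangles chromosomes, had 0.179 RPKM in adult tissue, against 13.9 RPKM in embryonic tissue, from 5 and 1357 reads. Cdk1, Ccnb2 and Birc5, the mitotic kinase, its cyclin and survivin, had 0 adult reads and 400, 250 and 203 embryonic reads. With the 0 adult reads set to a floor of 3 reads, they were 38.00-fold, 23.7-fold and 19.3-fold lower in adult tissue. The upper 95% limit of a count of 0 was 3.69 reads, above this floor. In a whole tissue, fewer dividing cells and less of this RNA per cell cannot be told apart.

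Promoters of mitotic genes often hold the cell cycle genes homology region, TTTGAA, to which the MuvB complex binds, beside CCAAT boxes, to which NF-Y binds. The 2 mitotic promoters below belong to the genes with the largest differences of the list, and run from 250 bases before to 50 bases after the annotated start, from RefSeq on the build GRCm38.p6, with TTTGAA and CCAAT on either strand in capitals (TTCAAA and ATTGG are their reverse complements). The Mki67 window is at chr7:135716330-135716629 and the Top2a window at chr11:99024140-99024439, both on the minus strand.
Mki67: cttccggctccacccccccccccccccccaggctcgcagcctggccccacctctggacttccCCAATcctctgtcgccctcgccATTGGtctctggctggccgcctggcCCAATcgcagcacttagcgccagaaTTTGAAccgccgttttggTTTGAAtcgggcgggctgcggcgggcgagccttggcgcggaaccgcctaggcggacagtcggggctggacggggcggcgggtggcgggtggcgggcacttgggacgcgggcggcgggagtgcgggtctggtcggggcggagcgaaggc
Top2a: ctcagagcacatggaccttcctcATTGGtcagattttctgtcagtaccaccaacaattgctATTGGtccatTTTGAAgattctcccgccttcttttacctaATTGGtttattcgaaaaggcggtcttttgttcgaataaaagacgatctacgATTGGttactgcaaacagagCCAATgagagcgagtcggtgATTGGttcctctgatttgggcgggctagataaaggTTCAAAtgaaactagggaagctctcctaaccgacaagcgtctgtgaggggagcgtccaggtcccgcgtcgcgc

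Both motifs together were found in 18 of the 28 measured mitotic genes with a promoter sequence (64.3%), against 374 of 7598 measured genes of any kind (4.92%) and 1925 of all 27025 promoters (7.12%). TTTGAA alone was in 75% of the mitotic promoters, against 11.2% of measured genes and 18.1% of all, and CCAAT alone in 75%, against 38.9% and 37.9%. In the 26 promoters of measured DNA replication genes TTTGAA was found in 11.5%, and the E2F site TTTCCCGC in 19.2%, against 2.13% of measured genes. Neither the sterol element TCACNCCAC nor the E-box CACGTG was frequent in the 16 promoters of measured lipogenic genes, with 1 and 2 matches (6.25% and 12.5%, against 0.961% and 10.7% of measured genes). These are matches of letters on either strand in 1 window per gene.

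Genes of DNA replication stood on the same side. Of 31 measured members 23 were called higher in embryonic tissue and 0 in adult tissue, with a median of -1.69 (-1.37 scaled). Tk1, thymidine kinase, had 0.4097 RPKM in adult tissue, against 10.1 RPKM in embryonic tissue, and Rrm2, the regulated subunit of ribonucleotide reductase, 0.172 RPKM in adult tissue, against 7.796 RPKM in embryonic tissue. Uhrf1, which carries DNA methylation through replication, had 0.2198 RPKM in adult tissue, against 7.89 RPKM in embryonic tissue, and Mcm5, a subunit of the replicative helicase, 0.382 RPKM in adult tissue, against 8.44 RPKM in embryonic tissue. Pcna, the sliding clamp, which is also used in DNA repair, had 5.79 RPKM in adult tissue, against 14.3 RPKM in embryonic tissue and was not called. Of the regulators of the G1 phase, 10 of 19 were higher in embryonic tissue and 1 higher in adult tissue. Ccnd1, cyclin D1, had 1.87 RPKM in adult tissue, against 38.4 RPKM in embryonic tissue, E2f2 had 0.986 RPKM in adult tissue, against 16.6 RPKM in embryonic tissue, and the inhibitor Cdkn1a had 20.8 RPKM in adult tissue, against 78.1 RPKM in embryonic tissue. Rbl2, the pocket protein p130 of resting cells, had 14.7 RPKM in adult tissue, against 6.06 RPKM in embryonic tissue.

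Imprinted growth genes, which are expressed from a single parental allele and are shut down after birth in many mouse organs, included some of the largest differences on the embryonic side. Of 23 measured members 15 were called higher in embryonic tissue and 0 in adult tissue, with a median of -2.64 (-2.11 scaled). Mest, an enzyme-like protein tied to adipocyte size, had 1.41 RPKM in adult tissue, against 286 RPKM in embryonic tissue, from 18 and 12816 reads, a log2 ratio of -7.66 (95% interval -8.42 to -7.00). Dlk1, or Pref-1, a membrane protein of preadipocytes that holds back adipogenesis, had 0.5601 RPKM in adult tissue, against 133 RPKM in embryonic tissue, a log2 ratio of -7.89 (95% interval -8.80 to -7.11). Igf2, the fetal growth factor, had 4.46 RPKM in adult tissue, against 316 RPKM in embryonic tissue, a log2 ratio of -6.15 (95% interval -6.47 to -5.85).

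H19, the long RNA transcribed from the locus beside Igf2, had 23.2 RPKM in adult tissue, against 917 RPKM in embryonic tissue, and the row of Mir675, a microRNA encoded within it, held 9 and 936 reads, which cannot be told apart from those of H19 itself. Meg3 and Rian, long RNAs of the locus of Dlk1, were at 3.32 RPKM in adult and 89.8 RPKM in embryonic tissue and at 1.25 RPKM in adult and 24.6 RPKM in embryonic tissue. Plagl1, a zinc finger factor that regulates other imprinted genes, had 0.569 RPKM in adult tissue, against 30.7 RPKM in embryonic tissue. Inhibitors of growth moved the same way as Igf2: Cdkn1c, the p57 inhibitor of cyclin-dependent kinases, had 8.54 RPKM in adult tissue, against 90.6 RPKM in embryonic tissue, and Grb10, an adaptor that damps insulin and IGF signals, 3.65 RPKM in adult tissue, against 39.9 RPKM in embryonic tissue. Not called were Snrpn, Sgce, Impact, Dcn and Igf2r among others, and of these the receptor Igf2r had 9.63 RPKM in adult tissue, against 17.9 RPKM in embryonic tissue.

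In the list of growth factors and binding proteins around Igf2, 4 of 13 measured members were higher in embryonic tissue, Igf2, Igf1 and the binding proteins Igfbp3 and Igfbp4, and 1, the growth hormone receptor Ghr, was higher in adult tissue. Igf1 had 3.25 RPKM in adult tissue, against 15.9 RPKM in embryonic tissue, and Ghr 46.4 RPKM in adult tissue, against 20.4 RPKM in embryonic tissue. The receptors Igf1r and Insr had 2.26 and 15.3 RPKM in adult tissue, against 2.88 and 12.6 RPKM in embryonic tissue, and were not called. Of 10 measured genes of fetal RNA binding and chromatin, 6 were higher in embryonic tissue and 0 in adult tissue. Gpc3, a heparan sulphate proteoglycan of fetal tissues, had 2.23 RPKM in adult tissue, against 28.1 RPKM in embryonic tissue, Igf2bp3, an RNA-binding protein of Igf2 messenger RNA, 0.172 RPKM in adult tissue, against 4.22 RPKM in embryonic tissue, and Dnmt1, the maintenance DNA methyltransferase, 1.89 RPKM in adult tissue, against 9.203 RPKM in embryonic tissue.

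**Figure D4:**
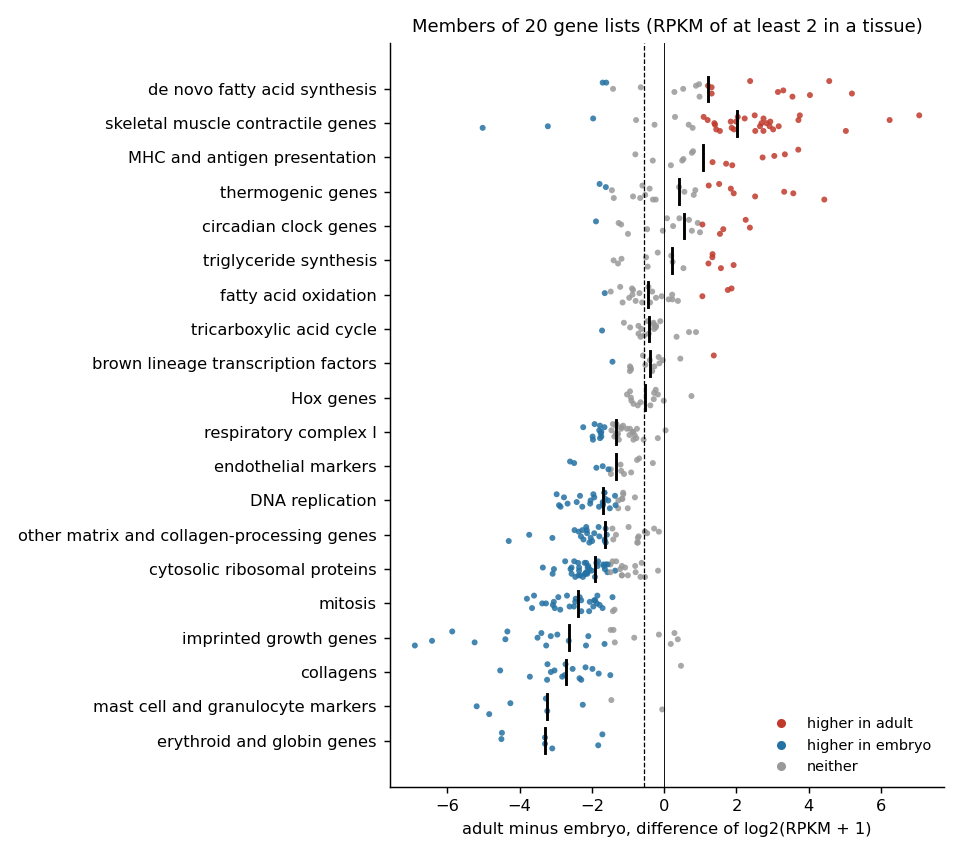
Each point is a measured member of a gene list, at its difference of log2(RPKM + 1), adult minus embryo, coloured by whether it was called; black bars are list medians and the dashed line is the median of all measured genes, -0.56. Fatty acid synthesis and skeletal muscle genes lie mostly to the right of the line, and mitosis, imprinted genes, collagens, mast cell and erythroid genes to the left of it.

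The extracellular matrix followed the same course. Of 17 measured collagen genes 16 were called higher in embryonic tissue, with a median of -2.73 (-2.25 scaled), and the remaining 1, Col27a1, had 6.42 RPKM in adult tissue, against 4.38 RPKM in embryonic tissue. They took 0.178% of adult reads, and 1.06% of embryonic reads. Col1a1, of fibrillar collagen I, had 7.44 RPKM in adult tissue, against 195 RPKM in embryonic tissue, and its partner Col1a2 8.62 RPKM in adult tissue, against 125 RPKM in embryonic tissue. Col3a1 had 23.7 RPKM in adult tissue, against 216 RPKM in embryonic tissue. The basement membrane collagen Col4a1, which adipocytes and vessels make, stood higher than the fibrillar ones in adult tissue, at 44.3 RPKM in adult and 229 RPKM in embryonic tissue. Matrix genes other than collagens had 22 of 35 members higher in embryonic tissue. Mfap4 and Mfap2, of elastic microfibrils, were at 0.247 and 0.177 RPKM in adult and 23.6 and 14.7 RPKM in embryonic tissue, and Eln, elastin, at 1.43 RPKM in adult and 19.8 RPKM in embryonic tissue. Serpinh1, the chaperone of collagen, had 65.7 RPKM in adult tissue, against 312 RPKM in embryonic tissue. Dcn, decorin, a small proteoglycan of mature connective tissue, was not called, with 52.04 RPKM in adult tissue, against 57.7 RPKM in embryonic tissue.

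Basement membrane and protease genes were called in part. Of 16 laminin, nidogen and integrin genes 4 were higher in embryonic tissue, among them Nid2, which links basement membrane networks, with 1.99 RPKM in adult tissue, against 31.4 RPKM in embryonic tissue. Of 13 metalloproteinases and their inhibitors 2 were, Mmp14 (2.81 RPKM in adult and 20.04 RPKM in embryonic tissue) and Adamts12. Signalling genes of development are read against the 5.01% and 12% of all measured genes called higher in adult and in embryonic tissue, and with 1 or 2 calls a list they are given as values only. Of 12 measured Wnt pathway genes 1, Sfrp2, was higher in embryonic tissue (0.561 RPKM in adult and 4.98 RPKM in embryonic tissue), and of 11 genes of the BMP, TGF-beta and hedgehog pathways 1, Bmp6, was higher in adult tissue (6.28 RPKM in adult and 2.39 RPKM in embryonic tissue). None of 14 measured Hox genes, which mark position along the body axis, was called, with differences between -1.03 and 0.75 and a median of -0.52, close to that of all genes. Hoxa5 was the most abundant with 14.2 RPKM in adult tissue, against 16.9 RPKM in embryonic tissue, next to Hoxa4 with 8.56 RPKM in adult tissue, against 16.9 RPKM in embryonic tissue. Of 12 mesenchymal and somitic factors, Twist1 and Meox1 were higher in embryonic tissue, at 3.21 RPKM in adult and 10.9 RPKM in embryonic tissue and at 1.69 RPKM in adult and 7.48 RPKM in embryonic tissue.

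Cytosolic ribosomal proteins were called higher in embryonic tissue in 37 of 53 measured genes and higher in adult tissue in 0, with a median of -1.91 (-1.53 scaled). Rps19 had 5.05 RPKM in adult tissue, against 60.99 RPKM in embryonic tissue, and Rpl34 36.2 RPKM in adult tissue, against 315 RPKM in embryonic tissue. These transcripts are short, with a median of 684 bases, and only 46.5% of their 36-base words (median) were found in no other gene, so reads of their many copies may be shared. After subtraction of the length class the median was -0.78, with 20 genes past the threshold in embryonic and 1 in adult tissue.

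In immunity, genes of antigen presentation stood higher in adult tissue. Of 14 measured members 7 were called higher in adult and 0 higher in embryonic tissue, with a median of 1.07 (1.57 scaled). The class II genes, expressed by dendritic cells, macrophages and B cells, had the largest differences: H2-Aa had 29.03 RPKM in adult tissue, against 1.296 RPKM in embryonic tissue, Cd74, the invariant chain, 52.7 RPKM in adult tissue, against 4.31 RPKM in embryonic tissue, and H2-Ab1 19.4 RPKM in adult tissue, against 1.47 RPKM in embryonic tissue. Of class I, B2m, the common light chain, had 399.6 RPKM in adult tissue, against 108 RPKM in embryonic tissue, and H2-K1 103 RPKM in adult tissue, against 30.7 RPKM in embryonic tissue. H2-Q10, a class I gene outside the list, had 75.9 RPKM in adult tissue, against 1.63 RPKM in embryonic tissue. Class I genes share sequence with each other, so reads could be split among them. Of 8 measured markers of macrophages and monocytes 2 were higher in adult tissue, Retnla (10.00 RPKM in adult and 0.0891 RPKM in embryonic tissue, from 32 and 1 reads) and Cd14 (2.62 RPKM in adult and 0.676 RPKM in embryonic tissue), and 1, F13a1, was higher in embryonic tissue (3.25 RPKM in adult and 12.6 RPKM in embryonic tissue), with a median of -0.29 as deposited and 0.19 scaled. Csf1r had 2.17 RPKM in adult tissue, against 5.44 RPKM in embryonic tissue, Lyz2 had 19.6 RPKM in adult tissue, against 25.1 RPKM in embryonic tissue, neither was called, and the list summed to 51.1 RPKM in adult and 62.4 RPKM in embryonic tissue. Lymphocyte markers were under 2 RPKM throughout, with sums of 5.67 RPKM in adult and 4.98 RPKM in embryonic tissue.

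Interferon-stimulated genes pointed the other way, with 8 of 26 measured members higher in embryonic tissue and 1, Ifi27l2a, higher in adult tissue. Isg15, a ubiquitin-like protein, had 1.24 RPKM in adult tissue, against 13.8 RPKM in embryonic tissue, and Irf7, the amplifier of the response, 1.69 RPKM in adult tissue, against 8.12 RPKM in embryonic tissue. Ifi27l2a had 50.5 RPKM in adult tissue, against 11.2 RPKM in embryonic tissue. After subtraction of the length class 3 genes passed in adult and 2 in embryonic tissue, so the balance of this list depends on that setting. Of 12 measured complement and acute-phase genes 3 were higher in adult and 1 was higher in embryonic tissue, with a median of -0.01 as deposited and 0.50 scaled. Hp, haptoglobin, which adipocytes secrete, had 155 RPKM in adult tissue, against 11.8 RPKM in embryonic tissue, Orm1 had 52.8 RPKM in adult tissue, against 11.3 RPKM in embryonic tissue, and Cp, ceruloplasmin, 7.37 RPKM in adult tissue, against 2.19 RPKM in embryonic tissue. Lcn2, lipocalin 2, was the call on the embryonic side, with 0.219 RPKM in adult tissue, against 2.19 RPKM in embryonic tissue.

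Clock genes differed in a pattern within the list. Of 18 measured members, 5 were higher in adult tissue and 1 was higher in embryonic tissue. Nr1d1, the repressor REV-ERB alpha, had 63.3 RPKM in adult tissue, against 11.4 RPKM in embryonic tissue, Dbp, an output factor, 21.9 RPKM in adult tissue, against 3.81 RPKM in embryonic tissue, and Nr1d2 13.8 RPKM in adult tissue, against 4.09 RPKM in embryonic tissue. After subtraction of the length class 10 genes of the list passed in adult and 1 in embryonic tissue. Arntl, the activator BMAL1, which REV-ERB represses, had 2.002 RPKM in adult tissue, against 5.01 RPKM in embryonic tissue and was not called. Nfil3, a repressor that competes with Dbp, had 3.097 RPKM in adult tissue, against 14.1 RPKM in embryonic tissue, the call on the embryonic side. The time of day at which tissue was taken is not given in the labels, and its part in these values was not tested.

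Of hormone-related genes, Hsd11b1, the enzyme that regenerates active glucocorticoid inside fat cells, had 87.4 RPKM in adult tissue, against 1.11 RPKM in embryonic tissue, from 630 and 28 reads, and was the largest difference outside the lists on the adult side. The glucocorticoid receptor Nr3c1 was at 17.6 RPKM in adult and 16.7 RPKM in embryonic tissue. Targets of the receptor were called in both directions, 3 higher in adult tissue and 6 higher in embryonic tissue of 17. Mt2, a metallothionein, had 40.7 RPKM in adult tissue, against 3.55 RPKM in embryonic tissue, and Glul, glutamine synthetase, 384 RPKM in adult tissue, against 108 RPKM in embryonic tissue. Tsc22d3, or GILZ, had 8.44 RPKM in adult tissue, against 33.8 RPKM in embryonic tissue, and Ddit4 6.77 RPKM in adult tissue, against 30.6 RPKM in embryonic tissue. Of 17 nuclear receptors and thyroid genes, Thrb, Esr1, Dio2 and Nr3c2 were higher in adult tissue, and Rara (1.67 RPKM in adult and 7.101 RPKM in embryonic tissue) and Nr2f1 (0.539 RPKM in adult and 3.57 RPKM in embryonic tissue) higher in embryonic tissue, with a median of -0.35 as deposited and 0.18 scaled. Thrb, thyroid hormone receptor beta, had 10.5 RPKM in adult tissue, against 3.05 RPKM in embryonic tissue, whereas Thra, the alpha receptor, had 26.4 RPKM in adult tissue, against 45.2 RPKM in embryonic tissue and was not called. Of 17 secreted adipocyte genes 3 were higher in adult and 3 higher in embryonic tissue. Rbp4, the retinol carrier, had 60.3 RPKM in adult tissue, against 17.99 RPKM in embryonic tissue, and Retn, resistin, 40.8 RPKM in adult tissue, against 128 RPKM in embryonic tissue. Adipoq, adiponectin, had 554 RPKM in adult tissue, against 826 RPKM in embryonic tissue and was not called.

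The adult library held the transcripts of adult skeletal muscle and the embryonic library those of developing muscle. Of 36 contractile genes, all of which were measured, 28 were called higher in adult and 3 higher in embryonic tissue, and together they took 1.13% of adult reads (Wilson 95% interval 1.11 to 1.14) and 0.216% of embryonic reads (0.213 to 0.218). Myh4, the myosin heavy chain of the fastest adult fibres, had 155 RPKM in adult tissue, against 0.177 RPKM in embryonic tissue, from 5003 and 20 reads. Pvalb, the calcium buffer of fast fibres, had 142 RPKM in adult tissue, against 0.896 RPKM in embryonic tissue, and Myh1 43.7 RPKM in adult tissue, against 0.372 RPKM in embryonic tissue. Myh7, the slow myosin, had 38.3 RPKM in adult tissue, against 4.14 RPKM in embryonic tissue. The genes called on the embryonic side were the developmental isoforms: Myh8, the perinatal myosin, had 0.0608 RPKM in adult tissue, against 33.4 RPKM in embryonic tissue, Myh3, the embryonic myosin, 0.187 RPKM in adult tissue, against 10.05 RPKM in embryonic tissue, and Myl4, the embryonic light chain, 1.48 RPKM in adult tissue, against 8.69 RPKM in embryonic tissue. Actc1, the actin of heart and of developing skeletal muscle, had 1.08 RPKM in adult tissue, against 46.8 RPKM in embryonic tissue. Acta1, the adult skeletal actin, was abundant in both, at 534 RPKM in adult and 183 RPKM in embryonic tissue. The other 23 genes called on the adult side, at differences between 1.09 (Des) and 3.75 (Tcap), were Tcap, Myh2, Actn3, Myl3, Ryr1, Myl2, Mybpc2, Tpm2, Mb, Ttn, Neb, Cacna1s, Tnnt3, Tnni1, Tnnc1, Tnnt1, Ckm, Casq1, Mybpc1, Mybph, Tnni2, Actn2 and Des. Tnnc2, Tpm1, Myl1, Mylpf and Tpm3 were not called, at differences between -0.78 and 0.79. The myogenic and receptor genes summed to 16.7 RPKM in adult and 16.2 RPKM in embryonic tissue.

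**Figure D5:**
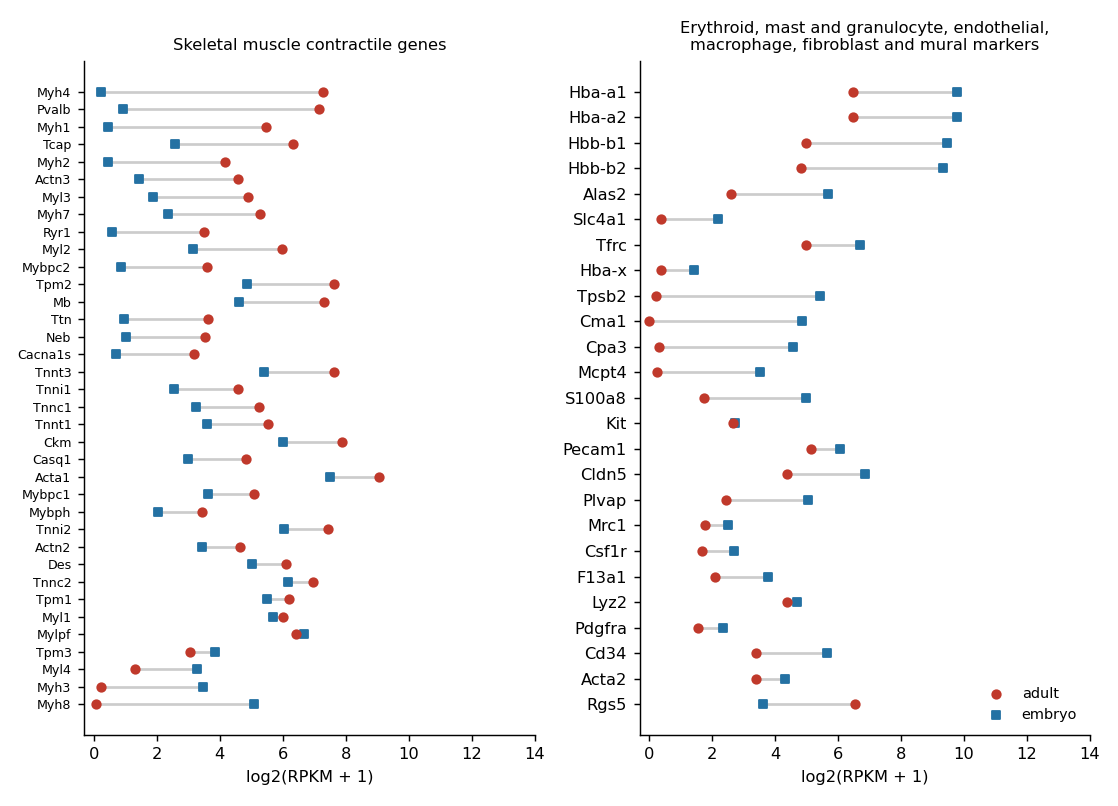
Red circles are log2(RPKM + 1) in adult tissue and blue squares that in embryonic tissue, for skeletal muscle contractile genes sorted by the difference (left panel) and for markers of other cell types (right panel). From Myh4 at the top the adult value lies to the right, and for Myl4, Myh3 and Myh8 at the bottom the embryonic value does; globins and mast cell proteases are far to the right in embryonic tissue, and Rgs5 in adult tissue.

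Blood and mast cell transcripts stood higher in embryonic tissue. All 7 measured erythroid genes were called higher there, and the list of 16 matched genes summed to 270.4 RPKM in adult and 3253 RPKM in embryonic tissue. Of the adult alpha globins Hba-a1 had 87.96 RPKM in adult tissue, against 873 RPKM in embryonic tissue, and of the beta globins Hbb-b1 had 30.5 RPKM in adult tissue, against 705 RPKM in embryonic tissue. Beta-s, another adult beta globin outside the list, had 244 RPKM in adult tissue, against 2573 RPKM in embryonic tissue. Alas2, the erythroid enzyme of heme synthesis, had 5.03 RPKM in adult tissue, against 50.6 RPKM in embryonic tissue. The embryonic alpha-like globin Hba-x was at 0.312 RPKM in adult and 1.69 RPKM in embryonic tissue. Hba-a2 had the same 263 and 9156 reads as Hba-a1, so these near-identical copies cannot be separated, and both the count and the sum of the list hold them as 2 genes. Without Hba-a2, a setting chosen after seeing the data, all 6 measured genes were called and the sum was 183 RPKM in adult and 2387 RPKM in embryonic tissue. Hbb-b2 was at 27.6 RPKM in adult and 647 RPKM in embryonic tissue. Tfrc, the transferrin receptor, which is not limited to erythroid cells, had 30.8 RPKM in adult tissue, against 103 RPKM in embryonic tissue, and Slc4a1, the red cell anion exchanger, 0.288 RPKM in adult tissue, against 3.56 RPKM in embryonic tissue. Hbb-y, Hbb-bh1, Epb4.2, Klf1, Gata1, Hemgn and Rhag were under 2 RPKM in both tissues, and of these Hbb-bh1, Klf1, Gata1, Hemgn and Rhag had 0 adult reads. Of mast cell and granulocyte markers 6 of 8 measured were higher in embryonic tissue. Tpsb2, a tryptase, had 0.172 RPKM in adult tissue, against 41.7 RPKM in embryonic tissue, Cma1, a chymase, 0 and 558 reads, and Cpa3, the mast cell carboxypeptidase, 0.257 RPKM in adult tissue, against 22.99 RPKM in embryonic tissue. S100a8, of neutrophils, had 2.38 RPKM in adult tissue, against 30.9 RPKM in embryonic tissue. Kit, the mast cell growth factor receptor that other cells express too, had 5.36 RPKM in adult tissue, against 5.601 RPKM in embryonic tissue.

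Of 14 endothelial markers 5 were higher in embryonic tissue, with a summed level of 264 RPKM in adult and 703 RPKM in embryonic tissue. Plvap, of fenestrated endothelium, had 4.45 RPKM in adult tissue, against 32.1 RPKM in embryonic tissue, and Cldn5, of tight junctions, 19.8 RPKM in adult tissue, against 116 RPKM in embryonic tissue. Pecam1 and Cdh5 had 34.4 and 51.4 RPKM in adult and 65.6 and 112 RPKM in embryonic tissue, and were not called. Of 18 angiogenic genes, Aplnr, Apln and Angpt2, of sprouting vessels, and Tie1 were higher in embryonic tissue, with Aplnr at 6.400 RPKM in adult and 57.8 RPKM in embryonic tissue, and Epas1 was higher in adult tissue, with a median of -0.48 as deposited and 0.05 scaled. Vegfa had 88.9 RPKM in adult tissue, against 141 RPKM in embryonic tissue and was not called. Of 11 mural markers Rgs5, of pericytes, was higher in adult tissue (91.5 RPKM in adult and 11.2 RPKM in embryonic tissue), and Notch3 and Smtn were higher in embryonic tissue, with a median of -0.46 as deposited and 0.05 scaled. Fibroblast and preadipocyte markers had 8 of 16 measured members higher in embryonic tissue and 1, Ly6a, higher in adult tissue, with Cd34 at 9.48 RPKM in adult and 49.2 RPKM in embryonic tissue, while Pdgfra was at 1.94 RPKM in adult and 4.12 RPKM in embryonic tissue and not called. Of 5 Schwann cell and neural markers 2 were higher in adult tissue, among them the myelin gene Mbp (6.21 RPKM in adult and 2.03 RPKM in embryonic tissue), and 1, S100b, was higher in embryonic tissue. Epidermal markers had no measured member, and Alpl was the measured cartilage and bone marker. Over all cell type lists 66 of 251 markers had 0 adult reads, none of them above 27.6 RPKM in embryonic tissue (Cma1), and 22 had 0 embryonic reads, none above 0.443 RPKM in adult tissue.

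Sex-linked genes did not point to 1 sex for the embryonic library. Xist, the RNA of the inactive X chromosome of females, had 1 read in adult and 10371 reads in embryonic tissue, 0.0104 RPKM in adult and 30.8 RPKM in embryonic tissue. Y-linked genes were read in both: Ddx3y was at 22.4 RPKM in adult and 8.99 RPKM in embryonic tissue, Eif2s3y at 30.2 RPKM in adult and 17.6 RPKM in embryonic tissue, Uty at 5.51 RPKM in adult and 2.07 RPKM in embryonic tissue and Kdm5d at 2.32 RPKM in adult and 1.91 RPKM in embryonic tissue. Tsix, antisense to Xist, had 0 and 450 reads, which cannot be told apart from those of Xist since the use of strand is unknown. The embryonic library therefore held both Xist and Y-linked RNA, and the adult library Y-linked RNA. The labels do not say whether embryos of both sexes were pooled. The part of sex in the other values was not tested and cannot be told apart from stage with 1 library each.

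Outside the lists, the 15 largest differences on the adult side were led by Hsd11b1, Aspg and H2-Q10. Aspg, an asparaginase, had 58.9 RPKM in adult tissue, against 0.995 RPKM in embryonic tissue, Amy1, an amylase, 49.9 RPKM in adult tissue, against 1.38 RPKM in embryonic tissue, and Fam151a 85.5 RPKM in adult tissue, against 3.57 RPKM in embryonic tissue. Hspb6, a small heat shock protein of muscle and fat, had 80.99 RPKM in adult tissue, against 3.86 RPKM in embryonic tissue, Acsm3, a medium-chain acyl-CoA synthetase, 49.98 RPKM in adult tissue, against 2.56 RPKM in embryonic tissue, and Ucp3, the uncoupling protein of muscle and brown fat, 55.7 RPKM in adult tissue, against 4.31 RPKM in embryonic tissue. The remaining members, Snx10, Kng2, Slc2a5, Gm20594, Pygl, Hyal1 and Gys2, had between 15.8 and 233 RPKM in adult tissue and between 0.327 and 17.8 RPKM in embryonic tissue. Gm20594 rested on 42 and 6 reads.

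On the embryonic side 8 of the 15 were small nucleolar, Cajal body or micro RNA precursors of at most 84 bases, such as Snord82 with 0 and 337 reads. Adam11, a neural membrane protein, had 0.403 RPKM in adult tissue, against 135 RPKM in embryonic tissue, from 11 and 12943 reads. Tsnax had 0 and 1092 reads and was listed at 0 in all 12 culture libraries. Agtr2, the angiotensin II receptor of fetal mesenchyme, had 0 and 1190 reads, at least 113-fold lower in adult tissue, and Capn6, a calpain-like protein of embryonic muscle, 0 and 965 reads. Itm2a, a membrane protein of developing muscle and cartilage, had 3.55 RPKM in adult tissue, against 86.3 RPKM in embryonic tissue, and Fam70a had 0.109 RPKM in adult tissue, against 26.2 RPKM in embryonic tissue. Nearest to the threshold on the adult side were Art3, Mtmr6 and Ppip5k1 inside it, at differences of 1.00, and Ugp2, St3gal5 and Mir1905 outside it, at 0.99 to 1.00. On the embryonic side these were Farsa, Ralb and 8430408G22Rik inside it and Wdr4, Tinagl1 and Tbc1d10a outside it, at -1.0008 for Farsa and -0.9992 for Wdr4, the nearest of each.

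The genes that separate the tissues were also read in the brown preadipocyte line of the same study, at day 7 of differentiation and at 0h, when the cells were confluent. The line was immortalized with SV40 T antigen, which drives cell division, and came from newborn mice with floxed Pparg, so the cells were neither adult nor embryonic. Of the 537 genes higher in adult tissue 286 reached 2 RPKM in the line, and of these 121 (42.3%) were higher and 33 (11.5%) lower at day 7 than at 0h by the same rule. Of the 1285 genes higher in embryonic tissue 1107 reached 2 RPKM, and 116 (10.5%) were higher and 292 (26.4%) lower at day 7. Over all 9793 genes measured in both comparisons 14.1% were higher and 12% lower at day 7. Under 2 RPKM at both times were 46.7% of the genes higher in adult tissue and 13.9% of the genes higher in embryonic tissue, against 8.55% of all. Single genes could go either way. Scd1 had 2473 RPKM at day 7 and 84.8 RPKM at 0h, Elovl6 had 4.98 RPKM at day 7 and 28.8 RPKM at 0h, and Acly had 58.1 RPKM at day 7 and 61.4 RPKM at 0h. Mki67 had 82.7 RPKM at day 7 and 68.9 RPKM at 0h, against the 14.2 RPKM of embryonic tissue. Each time, like each tissue, was 1 library.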

How the data were processed

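The authors deposited, per the file headers, a read count and an RPKM value for each of 29082 RefSeq transcripts in both tissue libraries, and RPKM values alone, rounded to 2 decimals, in the culture libraries. The submitters' processing notes list CASAVA 1.8.2 and mm9 without saying what each was used for. Aligner, counting program and strand setting were not given in the sources used here. Overlapping, antisense or near-identical genes may therefore share reads. Counts divided by RPKM gave the product of transcript length and library size, and GENCODE lengths of the same transcripts set the scale. The library sizes behind the RPKM were then 5.35 M reads (M, mega) in adult and 18.8 M reads in embryonic tissue. Of the resulting lengths, 24.1% were within 1 base of GENCODE and 100% within 0.01 bases of a whole number. The counts summed over all deposited transcripts came to 75.2% and 93.2% of these sizes. Near-identical transcripts such as Hba-a1 and Hba-a2 hold the same counts, so these sums can count a read more than once.

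Gene names came from the culture files by transcript, a RefSeq table restored 48 of 49 symbols garbled into numbers, and for the 3906 symbols with more than 1 transcript the one with the highest mean RPKM over the 14 libraries was kept. The rule for calls is given above, with a pseudocount of 1 RPKM, and no test was made since each group held 1 library. Intervals are 95% (exact Poisson for counts, exact conditional binomial for ratios, Wilson for shares), and cover counting error only; PCR copies are not separated. A count of 0 in a ratio was set to a floor of 3 reads. Sequence words came from GENCODE transcripts and promoters from RefSeq, both of GRCm38. Named are up to 6 called members of each list with the largest difference, the 15 largest differences on each side outside the lists with an RPKM of at least 10, the 12 most abundant genes of each tissue, the 3 called and 3 uncalled genes nearest the threshold, Ucp1, Klf4, Egr2, Pparg and the lists of muscle, erythroid, isoform and sex-linked genes in full. Some genes that this rule names are not reported here. Cell type markers with 0 reads are given as counts, and other genes named were chosen after their values were seen. The members and the 62 lists were chosen with earlier results of these data known. Calling was tested on simulated data. Python 3.11.15, pandas 2.3.3, numpy 2.4.6, scipy 1.17.1 and matplotlib 3.10.9 were used.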

Additional observations from a re-analysis of the deposited data

How the results depend on the processing

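No paired analysis was possible because each group held 1 library, and leaving out a replicate was not possible for the same reason. Counts are given as called higher in adult, then higher in embryonic tissue, beside 537 and 1285 and the median difference of -0.56. A pseudocount of 5 gave 255 and 503 with a median of -0.35, and a minimum RPKM of 10 gave 297 and 700 with -0.70. Deposited values alone gave 2900 on the embryonic side. Median-of-ratios scaling alone gave 1012 on the adult side with a median of -0.052, and upper-quartile scaling 1026 with -0.044. Scaling by the summed counts gave 816 and 1966 with -0.29, and leaving transcripts of over 1% of reads out of the totals gave 943 on the adult side with -0.17. Without a filter on low values the median was -0.078. Added after seeing the data, subtracting the median of the length class gave 1086 and 842, and subtracting those of length and GC classes 1076 and 730, with medians of 0 by construction. The other settings kept both counts within 1.5 times: a pseudocount of 0.1, a minimum of 20 reads, the transcript highest over the tissues and, added after seeing the data, no transcripts under 300 bases or under 90% of words found in no other gene. Counts of called members moved more often: of the 124 counts over the lists (62 lists, each side), 45 moved by over 1.5 times with the length class subtracted, 54 with length and GC classes, 45 at a pseudocount of 5, 35 scaled by the summed counts, 30 with deposited values alone, 28 at a minimum RPKM of 10, 28 without transcripts of over 1% of reads, 22 under each of the other scalings, 14 at a pseudocount of 0.1, 12 at 90% of unshared words and 5 with no filter. Depth limits the adult library most: 0 reads there were found for 113 of the 1285 genes called higher in embryonic tissue.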

Other observations

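Values of lists not described above are given without a reading. Of 16 measured immediate early genes, Nr4a2 was called higher in adult tissue, at 5.56 RPKM in adult and 2.27 RPKM in embryonic tissue, and Ier2 and Dusp1 higher in embryonic tissue, at 4.79 RPKM in adult and 17.4 RPKM in embryonic tissue and 9.63 RPKM in adult and 33.4 RPKM in embryonic tissue. Egr1, a relative of Egr2, had 2.68 RPKM in adult tissue, against 8.05 RPKM in embryonic tissue and was not called. Of 9 measured genes of the p53 pathway, Trp53, Cdkn1a and Bax were higher in embryonic tissue, with Trp53 at 3.48 RPKM in adult and 13.8 RPKM in embryonic tissue, while Mdm2 was at 12.8 RPKM in adult and 13.03 RPKM in embryonic tissue. Of 24 replication-dependent histone genes, whose RNA mostly lacks a poly(A) tail, 3 were measured, and Hist1h4h was higher in embryonic tissue, at 4.302 RPKM in adult and 18.8 RPKM in embryonic tissue.

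Of 9 measured markers of white fat, Agt, angiotensinogen, and Retn were higher in embryonic tissue, Agt with 0.508 RPKM in adult tissue, against 20.3 RPKM in embryonic tissue, while Lep, leptin, was at 2.24 RPKM in adult and 3.47 RPKM in embryonic tissue. Of the markers of beige fat and mesothelium Tnfrsf9 was the measured one, with 0 and 156 reads. Liver and yolk sac markers, which could enter embryonic dissections, summed to 45.2 RPKM in adult and 79.8 RPKM in embryonic tissue, most of it from Trf, transferrin, at 42.3 RPKM in adult and 76.3 RPKM in embryonic tissue, with 9 of 12 genes at 0 reads in adult and 6 in embryonic tissue.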
